A study of Mus musculus with 2 samples.

Results

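The genes described here were the tumor suppressor p53 (Trp53), 3 of its regulators and 6 genes that p53 is known to activate, 10 of the 23284 gene symbols measured. They were taken by symbol: Trp53, its inhibitors Mdm2 and Mdm4, the kinase Hipk2, and the targets Cdkn1a, Aen, Ccng1, Phlda3, Sesn2 and Gdf15. All 10 were found in both libraries, and all had at least 1 FPKM (fragments counted per kilobase of transcript for every 1000000 sequenced) in at least 1 of them. Transcripts were measured by RNA-seq in hematopoietic stem cells (HSCs) from mouse fetal liver (FL) at E14.5 (mid-gestation), to ask what goes wrong in the HSCs of fetuses without the endothelial cell-selective adhesion molecule (ESAM). The cells were of the LSK CD48- fraction, that is, negative for lineage markers, positive for Sca1, high in cKit and negative for CD48. One group was wild-type (WT), and the other, ESAM-null, came from homozygous fetuses of a conventional knockout, in which every cell type of the fetus and not the HSCs alone lacks the gene. There was 1 library per genotype, so no test between genotypes was possible, and the sources used here do not say how many fetuses or cells a library holds. The protocol text attached to the libraries speaks of sorted cells placed in methylcellulose medium, whereas the study describes these libraries as made from the sorted fraction itself.

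p53 is a transcription factor that is made continuously and kept scarce by degradation. Mdm2 marks it for destruction and, together with its relative Mdm4, blocks its activity, while kinases such as Hipk2 modify p53 after damage and favor its action on death genes. Active p53 switches on genes that halt the cell cycle, repair DNA, slow growth signaling or kill the cell, and it switches on Mdm2 as well, which closes a feedback loop. In HSCs p53 is known for holding cells in quiescence and for removing damaged ones. Because much of this control acts on the protein, mRNA levels do not measure p53 activity.

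The deleted gene was checked before any other. Esam had 118 FPKM in WT against 12.1 in ESAM-null, a 9.69-fold lower value (95% counting interval 8.40 to 11.3). The library labelled ESAM-null thus kept a low level of Esam reads, and which part of the gene they cover was not examined. The FPKM values summed to 751784 in WT and 911736 in ESAM-null. The value of 1 read, recovered from the lowest FPKM, corresponded to about 9390000 WT and 10220000 ESAM-null fragments. All intervals given here are exact 95% intervals of such approximate reads. They cover counting error only, and neither differences between fetuses nor copies made during amplification are in them. Of the 8 markers of the sorted stem cell fraction (among them Kit, Ly6a, Procr, Slamf1, Mecom, Cd34 and Hlf), none was at 0 and none differed by 2-fold, and their summed level was 807 FPKM in WT against 771 in ESAM-null.

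Of the 10 genes, 2 were past the 2-fold line downward in ESAM-null (Hipk2 and Gdf15), 1 upward (Phlda3), and the other 7 stayed within 2-fold. Among all 12066 genes with at least 1 FPKM in a library, 12.8% had an ESAM-null value lower by 2-fold or more and 7.42% a value higher by as much, so a count of 2 lower and 1 higher among 10 is near the background. What set Hipk2 and Phlda3 apart was the size of the ratio at their level, described with each gene. The median log2 ratio of ESAM-null to WT was 0.15 for the 10 genes and 0.00 for all genes. The sign of the median of the 10 genes depended on scaling: it was -0.04 with both libraries scaled to their upper quartile and -0.13 with both rescaled to a total of 1000000. Those scalings shift every log2 ratio by -0.19 and -0.28, respectively. As these are bulk libraries, fewer cells that express a gene and less RNA of it per cell cannot be told apart.

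**Figure D1:**
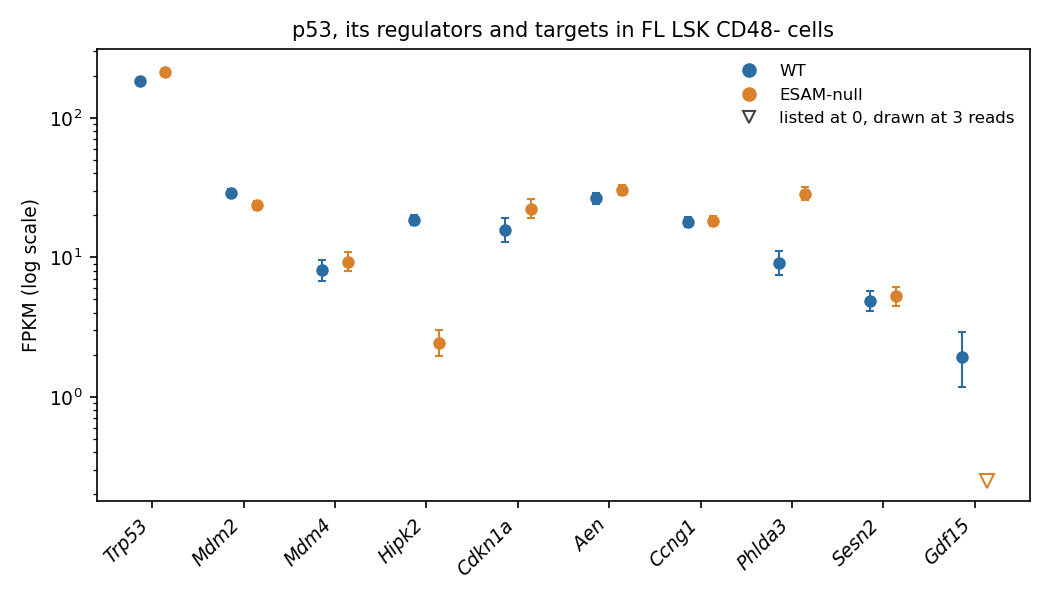
FPKM (log scale) of the 10 genes in the WT library (blue) and the ESAM-null library (orange), with exact 95% counting intervals as bars and 1 library per genotype. Hipk2 is far lower and Phlda3 far higher in ESAM-null, and Gdf15 is listed at 0 there and drawn as an open triangle at the level of 3 reads.

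The promoters of the 10 genes were searched for the p53 consensus, which is made of a pair of 10-base elements, each with the core CNNG. RefSeq start sites on GRCm38.p6 were found for all 10 genes, and the 250 bases before each start were read on both strands for the closest 20-base match that keeps both cores. Cdkn1a and Ccng1 held matches with 1 mismatch, a closeness found in 0.0578% of the 32851 promoter windows of the same length. The Cdkn1a match ended 31 bases before the more upstream of 2 annotated starts, and the Ccng1 match 175 bases before its start. Trp53 and Aen had 3 mismatches, which 1.14% of windows equal or better, Phlda3 had 5 (10.2% of windows), and Hipk2 and Gdf15 had 6 (20.6% of windows). Mdm2 and Sesn2 had 9 mismatches, and no 20-base stretch with both cores was found before the starts of Mdm4. An exact 10-base element alone occurs in 7.13% of windows, and 5 of the 10 genes held at least 1: Cdkn1a held 2, and Trp53, Mdm2, Aen and Ccng1 held 1 each. These shares are per window, whereas a gene with 2 annotated starts (Mdm4, Hipk2, Cdkn1a, Aen and Gdf15) was given the better of its windows. The sequences of the closest matches, of p53 itself, and of Phlda3 and Hipk2, which differed most among genes above 0 in both libraries, are shown with the match in capitals and 20 bases on each side, 5′ to 3′ on the strand of the gene. They are Cdkn1a, chr17:29090908-29090967 (plus strand), Ccng1, chr11:40755442-40755501 (minus strand), Trp53, chr11:69580264-69580323 (plus strand), Phlda3, chr1:135766022-135766081 (plus strand), and Hipk2, chr6:38876252-38876311 (minus strand).
Cdkn1a: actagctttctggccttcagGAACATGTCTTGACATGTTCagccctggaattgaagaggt
Ccng1: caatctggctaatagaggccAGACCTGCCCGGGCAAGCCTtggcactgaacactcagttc
Trp53: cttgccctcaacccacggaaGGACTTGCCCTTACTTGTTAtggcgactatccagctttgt
Phlda3: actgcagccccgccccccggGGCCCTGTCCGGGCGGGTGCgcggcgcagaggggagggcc
Hipk2: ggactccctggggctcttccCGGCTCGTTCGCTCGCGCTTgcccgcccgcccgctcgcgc
The genes with the closest matches were not those with the largest differences between the libraries: Cdkn1a and Ccng1 were within 2-fold, whereas Hipk2, with a distant match, and Phlda3 were not. A match of letters is a description and not evidence of binding. Elements farther upstream or inside a gene lie outside the 250 bases searched, so a distant match here does not mean that a gene lacks a p53 element.

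Trp53 (chr11:69580359-69591873, plus strand) was by far the most abundant of the 10 genes. Its level was 183 FPKM in the library from WT fetuses and 214 FPKM in that from ESAM-null fetuses. More than 97% of all gene symbols had a lower value in each library (97.1% in WT and 97.0% in ESAM-null). The ESAM-null level was 1.17 times the WT level (counting interval 1.11 to 1.23, from about 2690 and 3411 reads). Among the 500 genes nearest to Trp53 in mean level, 34.8% had a lower ratio, so the value lay within the bulk of genes as abundant as Trp53. Its log2 ratio of 0.22 became -0.06 when both libraries were rescaled to a total of 1000000. The relatives Trp63 and Trp73 were listed at 0 in both libraries, so Trp53 was the p53 family gene detected in these cells. Wrap53 begins 104 bp from Trp53 on the opposite strand and encodes a telomerase and Cajal body factor. It had 24.4 FPKM in WT against 12.4 in ESAM-null. The library kit does not mark strand, and the pair does not overlap in the annotation.

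Both inhibitors of p53 were close to their WT levels. Mdm2 (chr10:117688875-117710758, minus strand), the ubiquitin ligase that degrades p53 and is itself a p53 target, had 28.8 FPKM in WT against 23.5 in ESAM-null. The difference of 1.22-fold lower was beyond counting error (interval 1.10 to 1.36), and 25.6% of genes near it in level had a lower ratio. Mdm2 stayed lower in ESAM-null under every scaling tried, with a log2 ratio between -0.57 and -0.29. Mdm4 (chr1:132959484-133030561, minus strand), which binds p53 without degrading it, had 8.14 FPKM in WT against 9.32 in ESAM-null. Its ratio of 1.15 was not distinguishable from 1 at this depth (interval 0.903 to 1.45, from about 130 and 162 reads). The p53 transcript was thus slightly higher and the Mdm2 transcript slightly lower in ESAM-null, each by less than 1.5-fold, and the direction for Trp53 turned with the scaling.

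Hipk2 (chr6:38694390-38876165, minus strand), a nuclear kinase that phosphorylates p53 and also acts on other transcription factors, differed most between the libraries of the 9 genes that were above 0 in both. It had 18.5 FPKM in the library from WT fetuses and 2.43 FPKM in that from ESAM-null fetuses. The ESAM-null level was 7.62-fold lower (counting interval 6.09 to 9.57, from about 635 and 91 reads). Of the 500 genes nearest in level, 0.4% had a lower ratio. Hipk2 was 4th highest of the 10 genes in WT, where 78.2% of gene symbols lay below it, and 9th in ESAM-null, where 57.8% lay below it. The log2 ratio ranged from -3.21 to -2.93 over the scalings tried. With 1 FPKM added to both values it was -2.51. The annotation holds 4 lengths of Hipk2 transcripts with a RefSeq match, between 3867 and 7684 bases. The number of reads behind an FPKM thus depends on the transcript assumed, and the shortest, which gives the fewest reads, was used. Tbxas1 overlaps Hipk2 on the opposite strand but shares no exon with it. The nearest genes on either side were not expressed at a level that can be compared: Clec2l was listed at 0 in both libraries, and 1700025N23Rik had 0.153 FPKM in WT and 0 in ESAM-null.

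The other kinases of the HIPK family did not show a difference of that size. Hipk1, the closest relative of Hipk2, had 7.88 FPKM in WT against 7.78 in ESAM-null (ratio 0.987, interval 0.826 to 1.18). Hipk3 had 6.63 FPKM in WT against 5.56 in ESAM-null (ratio 0.839, interval 0.733 to 0.961). Hipk4 was barely detected, with 1.20 FPKM in WT against 0.530 in ESAM-null, 2.27-fold lower on about 25 and 12 reads (interval 1.10 to 4.95). In WT, Hipk2 was the most abundant HIPK gene, and in ESAM-null both Hipk1 and Hipk3 were above it.

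**Figure D2:**
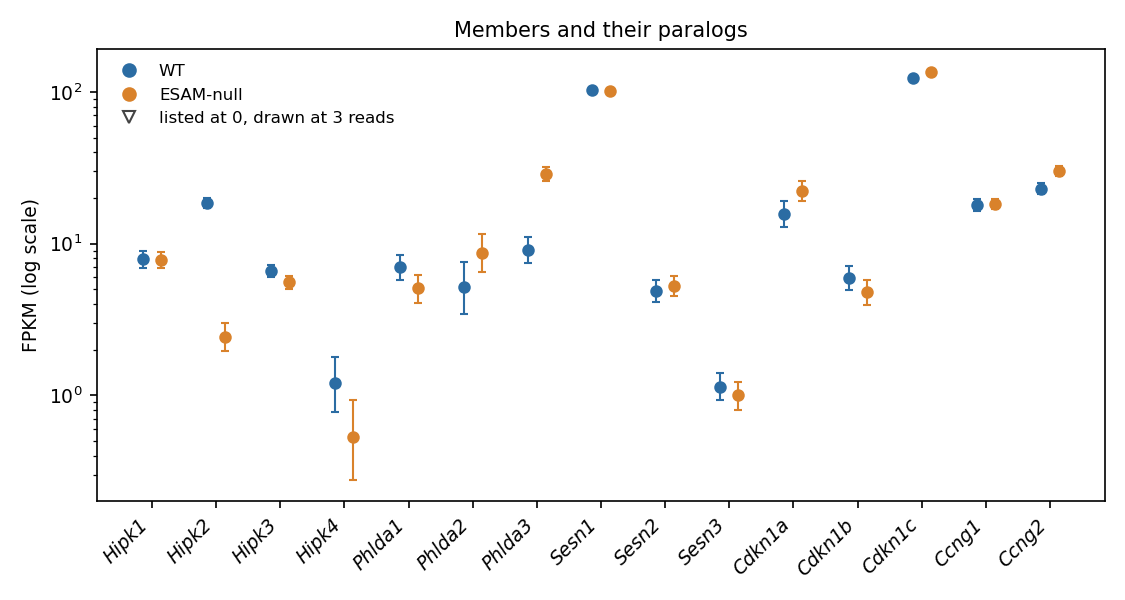
FPKM (log scale) of Hipk2, Phlda3, Sesn2, Cdkn1a and Ccng1 beside their paralogs in the WT (blue) and ESAM-null (orange) libraries, with exact 95% counting intervals as bars. The gaps between the libraries are widest for Hipk2 and Phlda3, while Sesn1, Cdkn1c and Hipk1 lie nearly level.

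Among the targets that stop the cell cycle, Cdkn1a (chr17:29090976-29100727, plus strand), which encodes the cyclin-dependent kinase inhibitor p21, had 15.7 FPKM in WT against 22.3 in ESAM-null. The ESAM-null level was 1.42 times the WT level (interval 1.11 to 1.84, from about 105 and 163 reads), and 85.4% of genes near it in level had a lower ratio. Cdkn1a stayed higher in ESAM-null under every scaling tried, with a log2 ratio between 0.23 and 0.51, but did not reach 2-fold. An uncharacterized transcript on the opposite strand shares exon sequence with Cdkn1a, and reads of the pair cannot be told apart. The other inhibitors of the family were Cdkn1b (p27), with 5.93 FPKM in WT against 4.79 in ESAM-null, and Cdkn1c (p57), with 123 FPKM in WT against 134 in ESAM-null. Cdkn1c, known for keeping HSCs quiescent, was therefore the most abundant of the 3 in both libraries. Ccng1 (chr11:40748552-40755311, minus strand), cyclin G1, which recruits a phosphatase to Mdm2, had 18.0 FPKM in WT against 18.3 in ESAM-null (ratio 1.02, interval 0.906 to 1.14). Its relative Ccng2 had 23.0 FPKM in WT against 30.2 in ESAM-null.

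Phlda3 (chr1:135766119-135769136, plus strand) was the target with the largest difference upward. It encodes a small protein that competes with the kinase Akt for membrane lipids and so dampens growth signaling. It had 9.09 FPKM in the library from WT fetuses and 28.6 FPKM in that from ESAM-null fetuses. The ESAM-null level was 3.15 times the WT level (interval 2.52 to 3.94, from about 105 and 359 reads). Of the 500 genes nearest in level, 99.8% had a lower ratio. Phlda3 moved from 7th of the 10 genes in WT to 3rd in ESAM-null, and its log2 ratio ranged from 1.38 to 1.66 over the scalings. Its relatives did not show a difference of that size: Phlda1 had 6.98 FPKM in WT against 5.08 in ESAM-null, and Phlda2 had 5.21 FPKM in WT against 8.66 in ESAM-null, from some 27 and 49 reads. The neighbor Csrp1, 13887 bp away, had 78.9 FPKM in WT against 76.5 in ESAM-null, and the neighbor Tnni1 on the other side had 2.43 FPKM in WT and was listed at 0 in ESAM-null. Phlda3 has a single length among its transcripts with a RefSeq match, and it overlaps no other annotated gene.

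Of the remaining targets, Aen and Sesn2 were close to level and Gdf15 was detected in WT alone. Aen (chr7:78895854-78911209, plus strand), a nuclease that cuts DNA during apoptosis, had 26.5 FPKM in WT against 30.4 in ESAM-null (ratio 1.15, interval 1.01 to 1.30). Sesn2 (chr4:132492032-132510501, minus strand), a sestrin that restrains mTORC1 under stress, had 4.89 FPKM in WT against 5.26 in ESAM-null (ratio 1.07, interval 0.857 to 1.34). Its relative Sesn1, also a p53 target, was far more abundant, with 104 FPKM in WT against 101 in ESAM-null, and Sesn3 had 1.14 FPKM in WT against 0.999 in ESAM-null. Gdf15 (chr8:70629393-70632456, minus strand), a secreted stress hormone of the TGF-beta superfamily that erythroblasts and macrophages also make, had 1.94 FPKM in WT from about 21 reads and was listed at 0 in ESAM-null. The exact upper limit of the ESAM-null level was 0.308 FPKM, and the mark drawn for it in the plot of the 10 genes, 3 reads, stands at 0.251 FPKM. Differences past 2-fold are frequent at such levels: of the 1869 genes whose higher value was between 1 and 3 FPKM, 34.5% were past 2-fold downward. How many of those genes were at 0 in ESAM-null, as Gdf15 was, was not counted.

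The sets of markers of cells that can make Gdf15 were also lower in the ESAM-null library. Of 6 genes of maturing erythroid cells, 4 were past 2-fold downward (66.7%, beside 12.8% of all genes). The 6 summed to 396 FPKM in WT against 66.4 in ESAM-null, most of it from the globin gene Hba-a2. Epb4.2 was at 0 in ESAM-null, Alas2, the erythroid heme enzyme, had 8.08 FPKM in WT against 0.282 in ESAM-null, and Rhag, a membrane protein of red cells, went the other way with 3.67 and 6.15 FPKM. Of 7 macrophage markers, 1 was at 0 in WT and 4 in ESAM-null (Adgre1, Cd5l, C1qa and Vcam1), and the 7 summed to 11.5 FPKM in WT against 5.55 in ESAM-null. Values of 0 were more frequent in ESAM-null throughout: of 23284 symbols, 14305 were above 0 in WT and 13039 in ESAM-null. Csf1r was instead higher, with 2.17 FPKM in WT against 3.59 in ESAM-null. The part of either cell type in the values of Gdf15, Hipk2 and Phlda3 was not tested. In a separate experiment of the paper, Gdf15 was the gene most strongly induced by crosslinking ESAM with an antibody on WT cells of this fraction. By qPCR the paper also found Alas2 and Hba-a2 lower in ESAM-null cells of this fraction, and it places that loss in the HSCs. Among markers of other cells of the liver, those of endothelial cells summed to 24.1 FPKM in WT against 16.7 in ESAM-null. Most of each sum was Pecam1, with 20.8 and 12.1 FPKM, which the paper lists among the antigens found on developing HSCs. The rest were low and went both ways. Kdr had 1.33 FPKM in WT against 0.780 in ESAM-null, and Lyve1 had 0.884 and 0. Cdh5 had 0.954 FPKM in WT against 3.33 in ESAM-null, and Stab2 had 0.0401 and 0.492. Hepatocyte markers summed to 39.7 FPKM in WT, with none at 0, and to 37.1 FPKM in ESAM-null, with 3 at 0. Most of that sum was Trf, with 32.5 and 22.8 FPKM, while Afp had 4.35 and 6.69 FPKM and Apoa1 had 1.09 and 7.52 FPKM. Megakaryocyte markers summed to 84.2 and 94.7 FPKM.

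**Figure D3:**
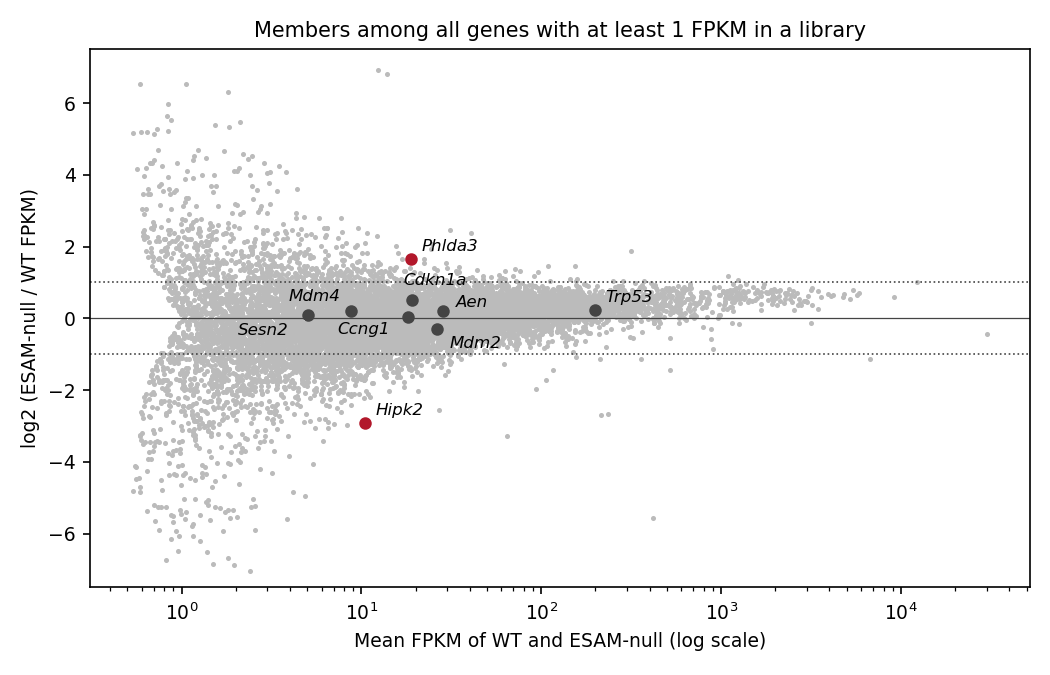
Log2 ratio (ESAM-null over WT) plotted against mean FPKM (log scale) for every gene with at least 1 FPKM in a library and a value above 0 in both (gray), with the 9 named genes that are above 0 in both marked. The dotted lines mark 2-fold, and Hipk2 and Phlda3 (red) lie at the edge of the cloud at their level while the other 7 lie inside it; Gdf15, listed at 0 in ESAM-null, has no point.

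The order of the 10 levels within each library placed these differences side by side. In WT the order was Trp53, Mdm2, Aen, Hipk2, Ccng1, Cdkn1a, Phlda3, Mdm4, Sesn2 and Gdf15. Neighbors whose counting intervals overlapped there were Mdm2 and Aen, Hipk2 and Ccng1, Ccng1 and Cdkn1a, and Phlda3 and Mdm4. In ESAM-null the order was Trp53, Aen, Phlda3, Mdm2, Cdkn1a, Ccng1, Mdm4, Sesn2, Hipk2 and Gdf15, with overlap between Aen and Phlda3, Mdm2 and Cdkn1a, and Cdkn1a and Ccng1. FPKM corrects for transcript length, which allows a rough comparison of different genes within a library. Other differences between genes in how well they are read, and the transcript assumed, are not in the counting intervals.

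Other regulators of p53 gave the wider context. Of 25 such genes listed, 24 had at least 1 FPKM. None of these was past 2-fold downward in ESAM-null and 2 were past it upward, and their median log2 ratio was -0.04. The shares of 0% lower and 8.33% higher lie beside 12.8% and 7.42% of all genes, so the count of higher regulators is near the background. Chek1, the checkpoint kinase that acts during replication stress, had 9.01 FPKM in WT against 18.7 in ESAM-null, 2.08 times the WT level (interval 1.79 to 2.40). Twist1, which represses the p53 pathway, had 0.0745 FPKM in WT against 1.16 in ESAM-null, from some 1 and 17 reads. Among the 15 measured genes listed as activators the median log2 ratio was -0.18, and among the 9 listed as inhibitors 0.20. Each median is the value of 1 gene (Usp7 and Rchy1, respectively), and each list held lower and higher genes. Rescaling to a total of 1000000 shifts every log2 ratio by -0.28, so the sign of the inhibitor median depends on the scaling. Each gene was listed as activator or inhibitor only, and genes that act in both ways were not set apart. The most abundant activators were the ribosomal proteins Rpl11 and Rpl5, which bind Mdm2 when ribosome assembly fails. Rpl11 had 1303 FPKM in WT against 2022 in ESAM-null, and Rpl5 had 404 FPKM in WT against 751 in ESAM-null. The most abundant inhibitors were Ybx1, with 377 FPKM in WT against 456 in ESAM-null, and the ubiquitin ligase Rchy1, with 33.5 FPKM in WT against 38.4 in ESAM-null. Cdkn2a, whose Arf product blocks Mdm2, was listed at 0 in both libraries.

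A wider set of 45 known p53 targets showed no common direction. Of the 40 that reached 1 FPKM, 4 were past 2-fold downward in ESAM-null and 3 upward, and the median log2 ratio was -0.01. The shares of 10% lower and 7.5% higher lie beside 12.8% and 7.42% of all genes. The lower genes were Pidd1 (listed as Lrdd), a scaffold for caspase activation, with 17.0 FPKM in WT against 6.26 in ESAM-null, and Ddb2, which recognizes ultraviolet damage, with 17.7 and 8.05 FPKM. Polk, a DNA polymerase that reads across lesions, had 6.01 FPKM in WT against 2.55 in ESAM-null, and Ak1, an adenylate kinase, had 10.5 and 4.29 FPKM. For Pidd1 the ESAM-null level was 2.72-fold lower (interval 2.27 to 3.27), and 1.6% of genes near it in level had a lower ratio. The higher genes were Cpt1c, a brain-type carnitine acyltransferase, with 0.492 FPKM in WT against 3.13 in ESAM-null, Zmat3, an RNA-binding protein, with 0.476 and 1.21 FPKM, and Apaf1, the core of the apoptosome, with 2.54 and 5.08 FPKM. Apaf1 lay just past the 2-fold line (counting interval of the ratio 1.60 to 2.51), and it was inside that line under each of the 4 other scalings, which left 2 higher targets.

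By function, the targets divided as follows. The lists are short, and of all genes 12.8% were past 2-fold downward and 7.42% upward. Of 10 cell cycle targets none was past 2-fold downward and 1 was past it upward, with Plk2 the most abundant at 128 FPKM in WT against 120 in ESAM-null. By mean level Ckap2 followed at 17.3 and 28.6 FPKM, and Btg2, which was above Ckap2 in WT, had 23.0 and 18.8 FPKM. Of 11 measured cell death targets 1 was past 2-fold in each direction, and their median log2 ratio was 0.23. The most abundant of them was Bax, the mitochondrial pore protein, with 209 FPKM in WT against 304 in ESAM-null, and Ei24 had 32.3 and 52.9 FPKM. In contrast, Bbc3, which encodes the death inducer Puma, had 23.5 FPKM in WT against 12.3 in ESAM-null, just inside 2-fold. Of 7 DNA repair targets 2 were lower and none higher, and Xpc, a sensor of DNA lesions, had 23.3 FPKM in WT against 13.9 in ESAM-null. Of 12 measured metabolic and feedback targets 1 was lower and 1 higher, and the most abundant were Rps27l, with 858 FPKM in WT against 1551 in ESAM-null, and Sesn1. Perp, Eda2r and Gls2 were below 1 FPKM in WT, and ESAM-null listed them at 0. Over all symbols too, fewer were above 0 in ESAM-null (13039) than in WT (14305).

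**Figure D4:**
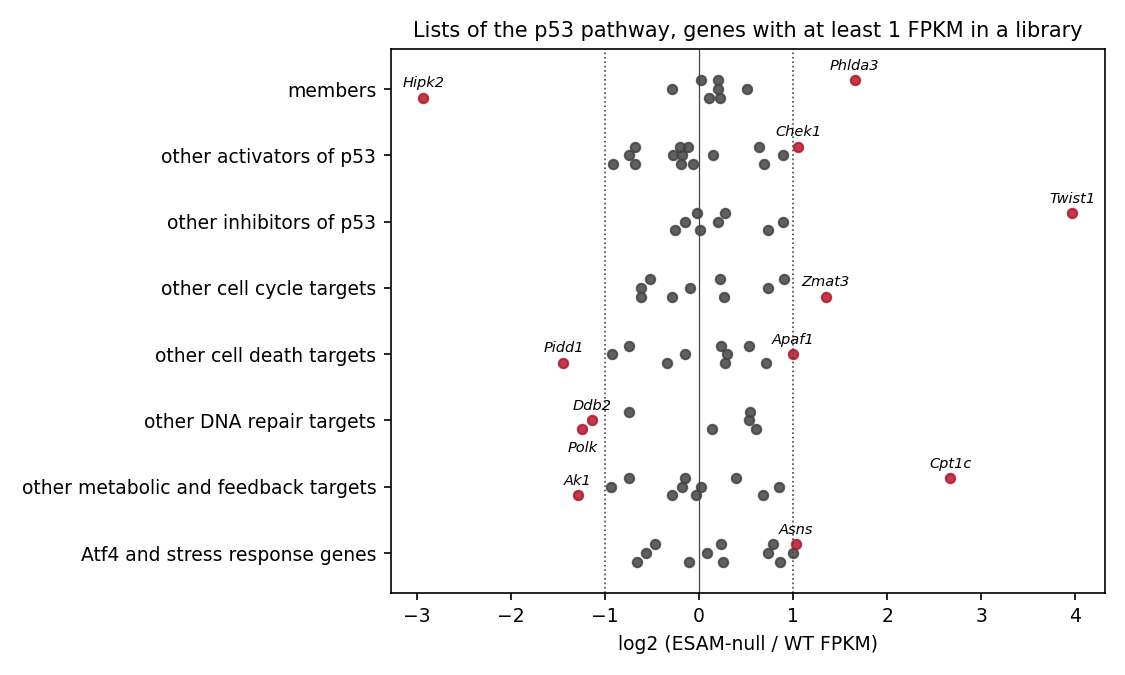
Log2 ratio (ESAM-null over WT) for the genes of 8 lists with at least 1 FPKM in a library and a value above 0 in both, 1 point per gene, with points past 2-fold (dotted lines) in red and named. Most genes of each list lie between the lines, Hipk2 is the lowest point of all lists, and Twist1, the highest, rests on 1 WT read.

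Sesn2 and Gdf15 also respond to Atf4, the transcription factor of the integrated stress response. A list of stress response genes, which includes Atf4 itself and is not limited to its targets, was therefore examined as well. Of 15 such genes, 12 reached 1 FPKM. None of them was past 2-fold downward and 1 was past it upward, and the median log2 ratio was 0.24. The shares of 0% lower and 8.33% higher lie beside 12.8% and 7.42% of all genes. The 3 genes below 1 FPKM were all lower in ESAM-null: Chac1 had 0.856 FPKM in WT and was at 0, Vldlr had 0.989 and 0.0486 FPKM, and Slc7a11, from some 3 and 1 reads, had 0.0353 and 0.0108 FPKM. Lower detection was not confined to this list, as 14305 of all symbols were above 0 in WT and 13039 in ESAM-null. Asns, asparagine synthetase, had 21.5 FPKM in WT against 43.8 in ESAM-null, 2.04 times the WT level (interval 1.80 to 2.32). Atf4 itself had 142 FPKM in WT against 132 in ESAM-null, and Phgdh, the entry enzyme of serine synthesis, had 339 and 405 FPKM.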

How the data were processed

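RNA was taken from FL LSK CD48- cells of WT and ESAM-null fetuses, 1 library each, made with a low-input cDNA kit that does not mark strand and read as 75 bp single ends. The authors deposited FPKM per gene symbol. Per the submitters' processing notes, the tools were Cuffnorm 2.2.1, SAMtools 0.1.19, Bowtie2 2.2.3 and TopHat2 2.0.13, and the build was mm10. Not given in the sources used here are the annotation, the scaling between libraries and the handling of reads with several map positions.

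Each gene's deposited ESAM-null FPKM was divided by its WT FPKM. Genes with at least 1 FPKM in 1 library were counted at a ratio of 0.5 or less, or of 2 or more. Approximate reads came from FPKM, a transcript length, an assumed fragment length of 200 bp (SD 80 bp) and the value of 1 read, recovered from genes at low FPKM. The length was that of the shortest GENCODE M21 transcript with a RefSeq match (GRCm38, the build of mm10). Whole reads, to within 0.05, came out for 70.1% of 720 such genes in WT and 73.4% of 425 in ESAM-null. The steps were tested on simulated data. With 1 library per genotype no test was made. Promoter sequences and starts were from RefSeq.

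The members and gene lists were chosen with earlier results of these data known. The genes named were every member and its paralogs, and of each list the genes past 2-fold and the 2 most abundant; a few genes that stay in the counts and sums of their lists are not reported here by name. Bbc3, Btg2, Cdkn2a, Perp, Eda2r, Gls2, Chac1, Vldlr, Slc7a11, marker genes within 2-fold or below 1 FPKM, and the chromosomal neighbors were chosen after seeing their values. The software was matplotlib 3.10.9, scipy 1.17.1, numpy 2.4.6, pandas 2.3.3 and Python 3.11.15. The alternatives were 4 other scalings, 0.1 or 1 FPKM added, other filters on low values, and thresholds of 1.5-fold and 3-fold.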

Additional observations from a re-analysis of the deposited data

How the results depend on the processing

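With 1 library per genotype, no replicate could be left out, and no paired analysis was possible because each genotype has 1 library. The count of members at least 2-fold higher was 1 under all alternatives run. The count at least 2-fold lower fell from 2 to 1 with a filter of at least 5 FPKM in 1 library or at least 1 FPKM in both, since Gdf15 is then not counted. For the other p53 targets, the count lower was 4, and became 9 with a total of 1000000 per library, 8 with no filter on low values, 11 at 1.5-fold and 0 at 3-fold. The count higher was 3, and became 2 with each of the 4 other scalings and with 0.1 FPKM added, 1 with 1 FPKM added, with at least 5 FPKM in 1 library, with at least 1 FPKM in both and at 3-fold, and 9 at 1.5-fold. Their median log2 ratio of -0.01 became -0.20 with upper quartile scaling and -0.28 with a total of 1000000. For the other regulators, the count lower rose from 0 to 1 with upper quartile scaling, 2 with a total of 1000000 and 4 at 1.5-fold. Their count higher of 2 became 1 with those 2 scalings, with 1 FPKM added, with at least 5 FPKM, with at least 1 FPKM in both and at 3-fold, and 7 at 1.5-fold. The Esam log2 ratio of -3.28 became -3.55 with a total of 1000000. Over all genes, 63.2% of the 2-fold calls were lower in ESAM-null as deposited (1540 lower and 895 higher), 73.6% with upper quartile scaling and 77.1% with a total of 1000000. The last scaling changed the sign of the log2 ratio of Trp53, Mdm4, Aen, Ccng1 and Sesn2, and upper quartile scaling that of Ccng1 and Sesn2. Which scaling is apt cannot be settled with 1 library per genotype. Depth limits Gdf15 most, and for Mdm4, Ccng1 and Sesn2 the counting interval of the ratio includes 1.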
